A study of Arabidopsis thaliana with 12 samples.

Results

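The XTH family of Arabidopsis thaliana, XTH1 to XTH33, was followed across all 12 root libraries of a root tip excision experiment. The members were the rows of the deposited count table for the 33 XTH loci, taken by locus identifier, of 32833 loci in all. XTH enzymes (xyloglucan endotransglucosylase/hydrolases) act on xyloglucan, the hemicellulose that coats and links cellulose microfibrils in the primary wall of most flowering plants. They cut a xyloglucan chain and either join the new end to another chain, which remodels the wall without weakening it for long, or pass it to water, which shortens the chain. In roots they are best known from elongating cells and root hairs, and single members respond to touch, auxin, brassinosteroid and wounding.

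The plants were Col-0 seedlings at 7 days after sowing, with no mutation or transgene named for any group. They had spent 1 h on plates with 50 µM CNQX, a blocker of ionotropic glutamate receptors in animals, or on mock plates, and about 130 µm of the tip was then removed. Tissue within about 100 µm above the cut (the stump) was taken at 4 times after the cut (30 min, 4 h, 14 h and 24 h), as a single library for each treatment at each time, and about 100 µm of uncut tip was taken after 14 h on either plate, with 2 libraries per treatment. For the last time the labels say 24 h and the series text 16 h, and the labels were followed. The sources used here do not say whether CNQX was in the plates after the cut, how many roots were pooled, or whether the uncut replicates were separate cultures, so p-values cover no more than the spread among these libraries, which may be technical. Stump tissue came from above the part that was cut off and uncut tissue from the tip itself, so the effect of the cut and of the position on the root cannot be told apart. In such bulk tissue, more cells of a type and more RNA per cell cannot be told apart either.

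The libraries held between 1575446 and 3302325 counts. A floor of 3 counts corresponded to 0.871 to 1.9 CPM (counts scaled to a common library size, after TMM). The mock 24 h library stood apart: it correlated at 0.668 with the mean over the other 11, where each of those reached 0.841 to 0.951, and results that rest on it are also given without it. The uncut libraries held root cap markers at a summed 47.9 to 110.2 CPM for 4 genes, against 3.47 to 28.5 in the stumps, and stem cell niche markers at 7.63 to 32.3 CPM for 3 genes, against 0.78 to 13.2. The niche sum rested on PLT1 and PLT2. WOX5 went the other way, at 0 to 1.27 CPM in uncut tips and 2.94 to 5.5 at 14 h and 24 h. Leaf markers, 2 genes, summed to 0.467 to 3.82 CPM in uncut tips, up to 4.54 at 30 min and 4 h, and 27.2 to 255.2 at 14 h and 24 h.

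The short stretch of coding sequence over the active site is shown because it codes for the residues that cut the xyloglucan chain, and because members described here differ there by clade. Each line gives 30 coding bases, and the capitals mark the codons for the catalytic triad of glutamate, aspartate and glutamate.
XTH5: catgatGAGataGACtttGAGtttctaggg
XTH22: tgggacGAGataGATttcGAGtttttaggg
XTH23: tgggacGAGattGACtttGAGttcttggga
XTH18: tgggatGAGattGATttcGAGttcttagga
XTH19: tgggatGAGattGATttcGAGtttttgggg
XTH14: tgggatGAGattGACttcGAGtttttggga
XTH30: cacgacGAGttaGACataGAGtttctaggg
XTH31: cacgatGAGgtcGATatcGAGtttctaggg
XTH32: catgatGAGgtaGACataGAAtttttgggg
The stretch was found once in 32 of the 33 coding sequences of RefSeq's TAIR10.1 annotation, all but XTH11. It opened with the codon tgg in 12 of 15 clade II members and in 0 of the 17 others that hold it, taken here as 10 of clade I, 2 of clade IIIA and 5 of clade IIIB. The codon just before the last capitals began with at in both clade IIIA members and 3 of 5 clade IIIB members (XTH29, XTH30 and XTH33), and in none of clades I and II. XTH18 and XTH19 matched at 27 of 30 bases here and XTH22 and XTH23 at 24, whereas XTH31 matched XTH32 at 23 and XTH18 at 21.

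Over whole coding sequences, the 528 pairs of members had a median identity of 62.4%, from 57.5% to 92.2%. XTH17 and XTH18 stood at 92.2%, XTH12 and XTH13 at 89.7% and XTH18 and XTH19 at 89.2%. Reads of these genes could in principle be shared. However, only 2 of the 50-base windows of the XTH17 transcript (0.171%), 19 of XTH18 (1.57%) and 21 of XTH19 (1.63%) occurred in another member, and no window of the other 30 did. Several members lie side by side: XTH23 and XTH14 are 363 bases apart on chromosome 4, XTH18 lies between XTH24 and XTH19 on chromosome 4, and XTH25 lies between XTH13 and XTH22 on chromosome 5. XTH15 overlaps AT4G14120 on the opposite strand. The strand setting of the counting is not given in the sources used here, so reads of XTH15 and of that locus, which had 6 to 234 counts per library, cannot be told apart.

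The family as a whole was more abundant in the stumps, and most at the late times. The 33 members together took 0.0326% to 0.0426% of counts in the 4 uncut libraries, 0.0682% to 0.0911% at 30 min and 4 h, 0.147% (mock) and 0.116% (CNQX) at 14 h, and 0.251% (mock) and 0.165% (CNQX) at 24 h. These groups of libraries did not overlap. The gap between 14 h and 24 h rests largely on XTH31, which held 4451 of the 7624 family counts in mock 24 h and 982 of 3415 in CNQX 24 h. Between 14 and 19 members had any count in an uncut library, and 25 or 26 did at 14 h and 24 h.

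**Figure D1:**
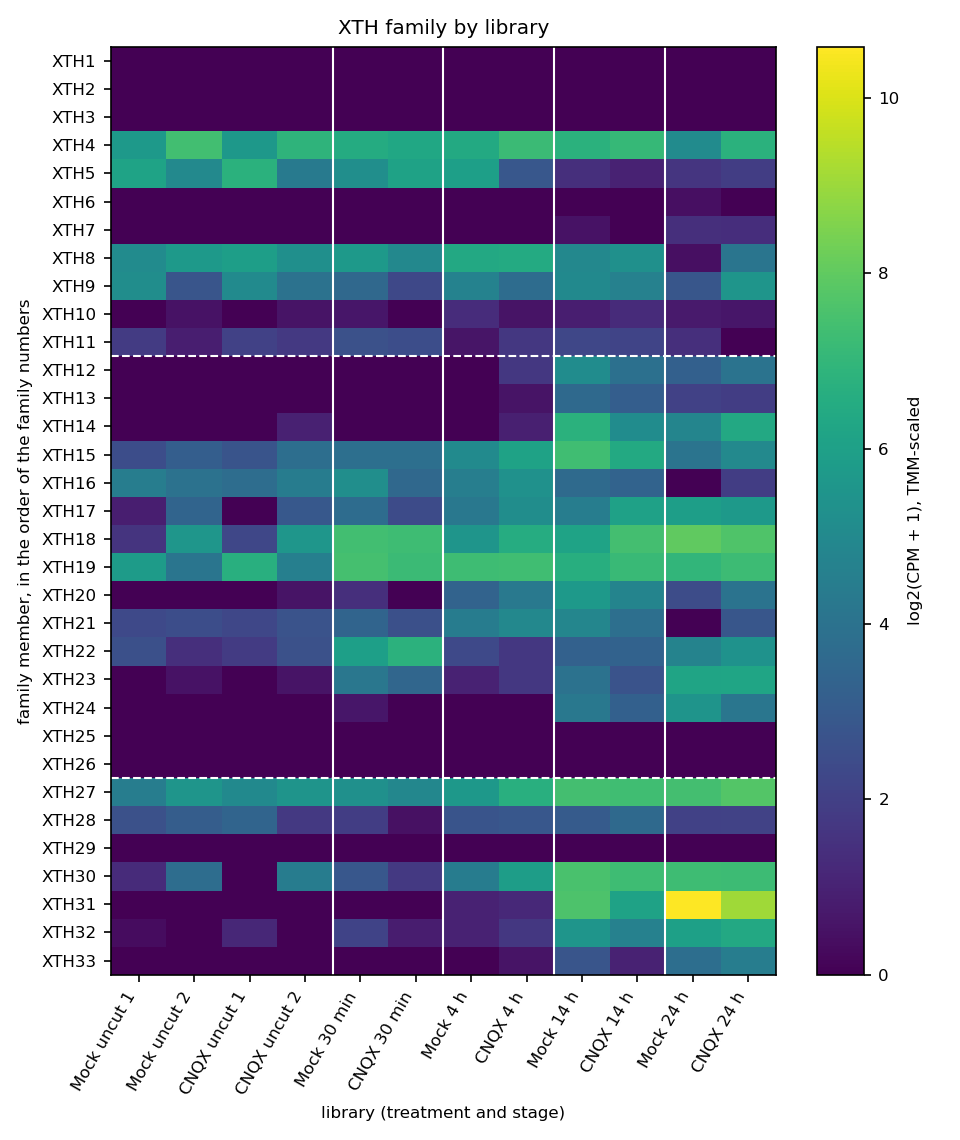
Level of each of the 33 XTH members (rows, in the order of the family numbers, with dashed lines between clades I, II and III) in each of the 12 libraries (columns), as log2(CPM + 1) on TMM-scaled libraries. XTH4, XTH5, XTH8, XTH19 and XTH27 are at 16.1 CPM or more in every uncut library, XTH18 is so only in replicate 2 of each treatment, and XTH31 is at 0 in every uncut and 30 min library and highest of the family in both 24 h libraries.

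Levels divided by transcript length (CPM per kilobase, given from here as length-scaled levels) allow genes to be compared with each other. XTH4 had the highest mean in uncut tips, 61.9, from 31.5 to 108.2 over the 4 libraries, followed by XTH8 at 37.6 (27.4 to 49.4), XTH19 at 36.4 (12.1 to 75.8) and XTH5 at 29.7 (10.2 to 56.3). The ranges of these 4 overlap, so their order does not hold beyond the spread. At 30 min XTH18, at 124.1 and 129.3, and XTH19, at 109.9 and 130.8, led in both libraries, and their own ranges overlap. At 24 h XTH31 stood at 1099.0 (mock) and 386.8 (CNQX), above XTH18 at 199.6 and 158.1. XTH27, at 110.0 and 138.2, and XTH30, at 113.0 and 109.7, lay below XTH18 in both, and their own order differed between the 2 libraries.

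Clade I, the clade of XTH4, XTH5, XTH8 and XTH9, supplied 47.8% to 58% of the summed length-scaled level in uncut tips, 24.3% to 37% at 30 min and 4 h, 11.3% and 15.5% at 14 h, and 1.6% (mock) and 8.41% (CNQX) at 24 h. Clade II supplied 27.4% to 35.8% in uncut tips and 69.4% and 71.2% at 30 min, its highest share. Clade IIIA, which holds XTH31 and XTH32 and whose enzymes are known to favour hydrolysis over chain joining, went from at most 0.465% through 4 h to 16.6% (mock) and 7.37% (CNQX) at 14 h and to 60% (mock) and 32.8% (CNQX) at 24 h. Clade IIIB ran from 4.29% to 25%, highest in both 14 h libraries. A share falls when another member rises, so the small clade I share at 24 h does not mean that each of its members fell.

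**Figure D2:**
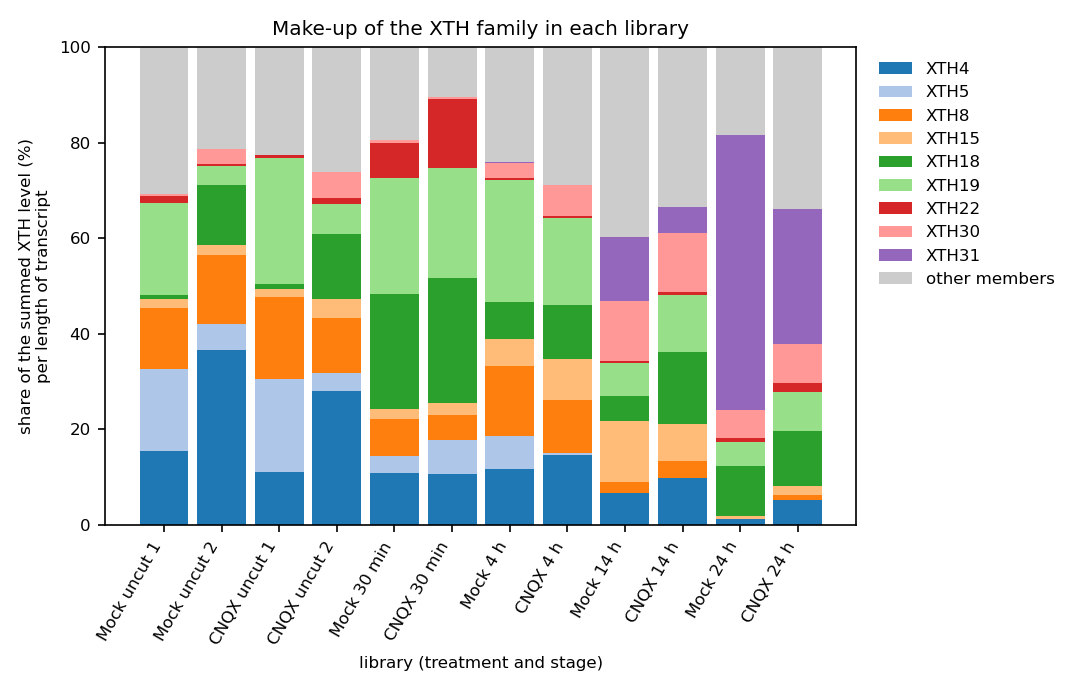
Share of each named member in the summed length-scaled XTH level (%, vertical axis) of each library (horizontal axis); members that reach 12% in no library are pooled in grey. XTH4, XTH5 and XTH8 fill much of the uncut bars, XTH18 and XTH19 the 30 min bars, and XTH31 fills 57.6% of the mock 24 h bar and 28.3% of the CNQX 24 h bar.

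Of the 33 members, 24 had enough counts to be tested. XTH1 (AT4G13080), XTH2 (AT4G13090), XTH3 (AT3G25050), XTH25 (AT5G57550), XTH26 (AT4G28850) and XTH29 (AT4G18990) had no count in any of the 12 libraries. XTH26 is a gene known from root hairs. XTH6 (AT5G65730) had 1 count, in mock 24 h. XTH7 (AT4G37800) had 9 counts, 1 in mock 14 h and the others at 24 h, and XTH10 (AT2G14620) had 15 counts with at most 3 in a library. At this depth a level below 0.871 to 1.9 CPM is not detectable, so these 9 members are low or absent.

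Counts were tested with edgeR's quasi-likelihood test over all genes, with Benjamini-Hochberg adjustment, both treatments averaged. For the mean of the 4 times against uncut tips, 10 of the 24 tested members rose and 1 fell, against 25.5% of all 16820 genes tested changed in either direction (13.6% up, 11.9% down). For 6 tested members with no or almost no counts in uncut tips and at 30 min (XTH12, XTH13, XTH14, XTH24, XTH31 and XTH33), a mean over the 4 times could not be fitted, and they are described by counts and by single times. The median log2 fold change was 1.52 over the 18 fitted members, and 2.33 over the 24 with these 6 at their count ratio or lower bound, against 0.02 over all genes. Members that passed the filter through the stumps alone, these 6 and XTH20, XTH23 and XTH32 among them, had to be higher there. These counts and medians, and the counts at single times, are therefore a description, as are the calls of these members against uncut tips. At least 1 of the 6 comparisons of stages (the mean of the times, the 4 single times, and late against early stumps) called 19 of the 24. The other 5, XTH4, XTH9, XTH11, XTH21 and XTH28, were called in none.

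**Figure D3:**
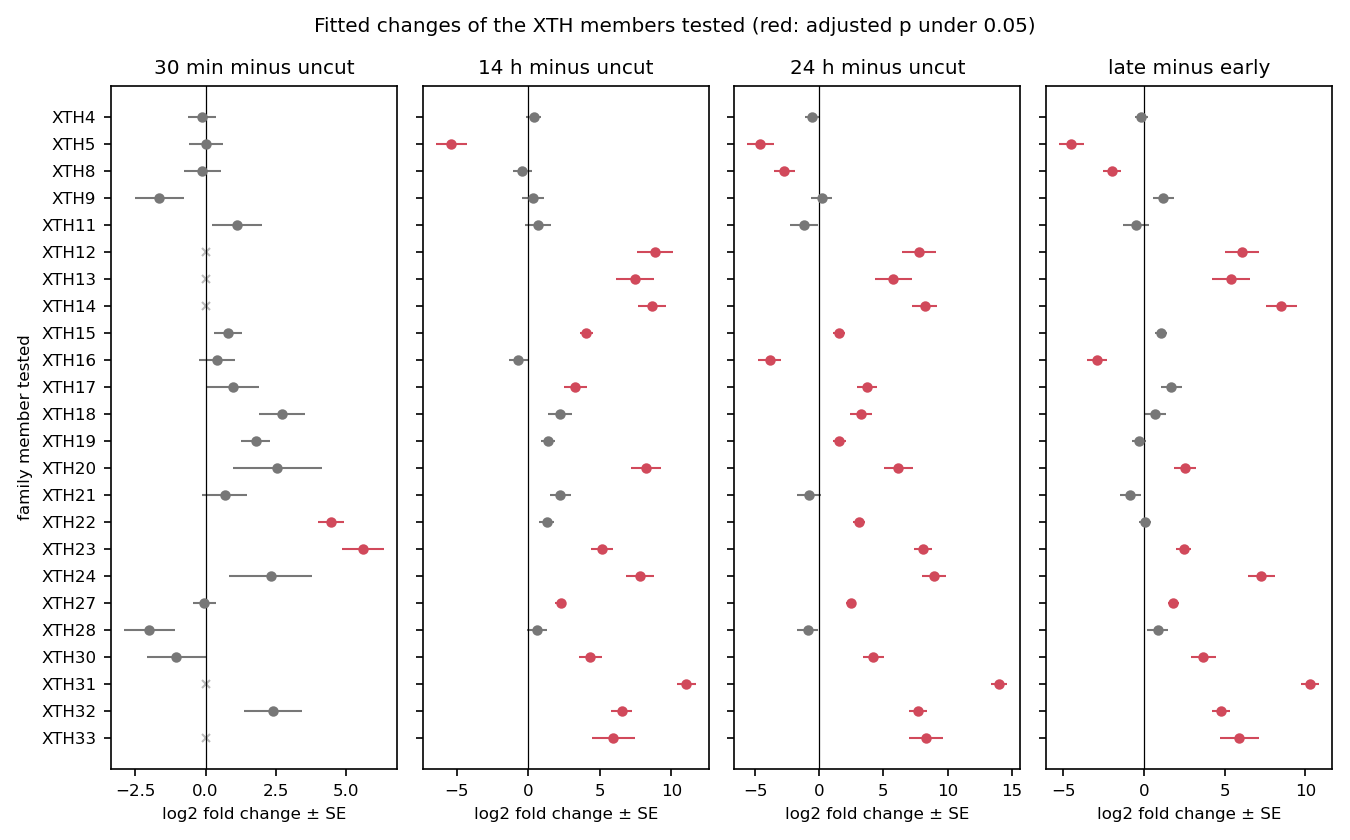
Fitted log2 fold change (points) with its standard error (lines) of each of the 24 members tested, for 30 min, 14 h and 24 h against uncut tips and for late (14 h and 24 h) against early (30 min and 4 h) stumps; red marks an adjusted p under 0.05, and a grey cross marks a member at 0 or near 0 in both groups with no usable fit. At 30 min only XTH22 and XTH23 are red, and at 24 h XTH31 lies farthest to the right, at 14.01.

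A pair of clade II genes rose within 30 min of the cut. They were the 2 of 24 tested members called at that time, both up, against 4.43% of all genes (3.23% up, 1.2% down). XTH22 (AT5G57560, chr5:23307006-23308680, minus strand, 2 exons) is TCH4, the classic touch-induced XTH gene. XTH22 stood at 4.94 and 1.7 CPM in mock uncut tips, at 2.53 and 5.14 in CNQX uncut tips, and at 62.4 (mock) and 109 (CNQX) at 30 min. It was back at 4.09 (mock) and 2.27 (CNQX) at 4 h, then at 8.82 and 8.91 at 14 h and at 25.5 and 41.2 at 24 h. Both 30 min libraries were above every other library, the 4 h libraries lay within the uncut range, and both 24 h libraries were again above all uncut ones. XTH22 rose by 4.49 ± 0.46 at 30 min (log2 ± SE, adjusted p = 0.000218; 2 libraries against 4) and by 3.13 ± 0.46 at 24 h (adjusted p = 0.000342), while 4 h gave -0.21 ± 0.60.

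XTH23 (AT4G25810, chr4:13128394-13129927, plus strand, 3 exons) is 80.9% identical to XTH22 over the coding sequence. It was also up at 30 min and low at 4 h, but its highest libraries were those of 24 h. XTH23 had 0 and 1 counts in the uncut libraries of each treatment. It had 31 and 26 counts (mock and CNQX; 17.6 and 10.1 CPM) at 30 min, 2 and 5 at 4 h, 35 and 11 at 14 h, and 207 and 136 (71.2 and 74.6 CPM) at 24 h. Every stump library except mock 4 h had more than the 3 counts of the floor, and no uncut library did. The ratio to uncut tips was 62.7-fold at 30 min (95% counting interval 16.6 to 530) and 345-fold at 24 h (94.9 to 2860). The fitted rises were 5.63 ± 0.75 at 30 min (adjusted p = 0.00123), 5.16 ± 0.77 at 14 h and 8.09 ± 0.69 at 24 h (adjusted p = 8.07e-06), and the 4 h value of 2.69 ± 1.01 was not called. Both 30 min calls were kept under each of the 22 settings tried.

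The 250 bases just before the annotated start of each of these 2 genes, and of XTH31, the gene that rose most, are shown because they are the nearest upstream sequence of the early and of the late gene (RefSeq TAIR10.1, gene strand). Capitals mark TTGAC on either strand, the core of the W-box bound by WRKY factors.
XTH22, chr5:23308681-23308930, minus strand: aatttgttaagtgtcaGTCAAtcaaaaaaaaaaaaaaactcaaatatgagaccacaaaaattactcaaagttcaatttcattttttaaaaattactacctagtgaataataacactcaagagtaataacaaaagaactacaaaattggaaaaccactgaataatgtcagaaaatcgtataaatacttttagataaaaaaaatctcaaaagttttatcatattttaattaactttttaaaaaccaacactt
XTH23, chr4:13128144-13128393, plus strand: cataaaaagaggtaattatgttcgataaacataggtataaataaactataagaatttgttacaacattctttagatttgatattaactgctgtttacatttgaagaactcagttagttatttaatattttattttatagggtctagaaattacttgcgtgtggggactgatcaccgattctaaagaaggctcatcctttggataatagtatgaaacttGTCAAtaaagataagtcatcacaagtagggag
XTH31, chr3:16448845-16449094, minus strand: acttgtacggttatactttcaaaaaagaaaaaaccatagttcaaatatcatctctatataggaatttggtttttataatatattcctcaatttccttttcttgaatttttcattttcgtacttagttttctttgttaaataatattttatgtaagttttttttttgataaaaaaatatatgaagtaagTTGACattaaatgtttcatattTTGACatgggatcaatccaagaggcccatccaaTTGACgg
TTGAC was found 1 time in the XTH22 and XTH23 windows and 3 times in that of XTH31. It occurred in 15 of the 33 XTH windows, against 44.9% of the 27443 protein-coding genes' windows of the same length. CGCG, the core bound by CAMTA factors, occurred in 3 of 33 (10.1% of all windows), CACGTG, the G-box, in 0 of 33 (6.49%), and TGTCTC, an auxin response element, in 2 of 33 (10.9%), each on either strand. TATAAA occurred in 18 of 33, against 47.3% of all. These motifs were chosen after expression values were seen, and a match describes letters in the window, not a binding site.

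XTH17 to XTH20 form a group of close relatives of clade II known for expression in roots, and each of the 4 rose after excision. XTH18 (AT4G30280, chr4:14825757-14827211, minus strand) stood at 2.03 and 46.7 CPM in mock uncut tips and at 3.8 and 46.2 in CNQX uncut tips, so that replicate 2 was far above replicate 1 in both treatments. In the stumps it stood at 163 and 157 (mock and CNQX) at 30 min, 45 and 91.6 at 4 h, 69.7 and 170 at 14 h, and 252 and 200 at 24 h. Every stump library except mock 4 h lay above all uncut libraries. The rise was 2.39 ± 0.68 over the 4 times (adjusted p = 0.023; 8 libraries against 4) and 3.24 ± 0.83 at 24 h (adjusted p = 0.0101). The first call was lost without CNQX uncut replicate 1 and without CNQX 14 h, and the second without mock 24 h.

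XTH19 (AT4G30290, chr4:14828712-14830224, minus strand) is the neighbour of XTH18 and, with XTH20, is known from the joining of cut Arabidopsis stems, where ANAC071 acts on both. XTH19 stood at 54.6 and 16.1 CPM in mock uncut tips and 101 and 22.4 in CNQX uncut tips, and here replicate 1 was the higher one in both treatments. The stumps held 175 and 147 (mock and CNQX) at 30 min, 158 and 159 at 4 h, 98.3 and 145 at 14 h, and 125 and 150 at 24 h. Every stump library except mock 14 h lay above all uncut libraries. XTH19 rose by 1.62 ± 0.41 over the 4 times (adjusted p = 0.0137), a call kept under all 23 settings tried. The call at 24 h (1.55 ± 0.51, adjusted p = 0.034) was lost under 8 of 22 settings, among them the replicate block and the omission of mock uncut replicate 2, CNQX uncut replicate 2, CNQX 30 min or any of the 4 libraries at 14 h and 24 h.

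XTH17 (AT1G65310) held 3 and 23 counts in mock uncut tips and 0 and 14 in CNQX uncut tips. Its levels in the stumps were 12.5 and 4.29 CPM (mock and CNQX) at 30 min, 17.9 and 35.8 at 4 h, 21.4 and 65.4 at 14 h, and 60.2 and 49.9 at 24 h. From 4 h on, each library lay above all uncut ones, whose highest value was 9.75. The rise was 2.65 ± 0.69 over the 4 times (adjusted p = 0.0153), lost without CNQX uncut replicate 1. XTH20 (AT5G48070) had 1 count in all 4 uncut libraries together and went to 3 and 0 counts (mock and CNQX) at 30 min, 18 and 41 at 4 h, 121 and 54 at 14 h and 13 and 28 at 24 h. XTH20 was highest at 14 h in both treatments. The ratio to uncut tips was 135-fold at 4 h (95% counting interval 23.3 to 5420) and 379-fold at 14 h (67.1 to 15000), with 87.7-fold at 4 h without CNQX 4 h. The mean over the times was 5.91 ± 1.09 (adjusted p = 0.00369), lost without mock 30 min.

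At 4 h, 2 of the 24 tested members were called, XTH20 and XTH15, both up, against 2.97% of all genes (2.59% up, 0.386% down). XTH20 rose by 6.69 ± 1.10 (adjusted p = 0.00926) and XTH15 by 2.64 ± 0.47 (adjusted p = 0.0109), and both calls were lost without CNQX 4 h. XTH15 (AT4G14130), also called XTR7 and known from shade-induced petiole growth, stood at 4.65 and 8.06 CPM in mock uncut tips and 5.7 and 13.1 in CNQX uncut tips. It reached 13.6 and 13.7 (mock and CNQX) at 30 min, 32.2 and 67.1 at 4 h, 163 and 85.7 at 14 h, and 15.8 and 30.7 at 24 h. Every stump library lay above every uncut one, with the peak at 14 h. XTH15 rose by 2.26 ± 0.38 over the 4 times (adjusted p = 0.00199), kept under all 23 settings tried, and by 4.04 ± 0.47 at 14 h. Its call at 24 h (1.54 ± 0.48) was lost without mock uncut replicate 1, CNQX uncut replicate 1, mock 24 h or CNQX 24 h.

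XTH12, XTH13 and XTH14 are root-expressed members of clade II, and XTH14 is known from root hairs. They had almost no reads until 14 h. XTH14 (AT4G25820, chr4:13130291-13131860, plus strand) had 2 counts in the uncut libraries together, none at 30 min, 0 and 2 (mock and CNQX) at 4 h, 256 and 69 (107 and 34.2 CPM) at 14 h, and 78 and 149 (26.8 and 81.8 CPM) at 24 h. XTH12 (AT5G57530) had 0 counts in every uncut and 30 min library, 0 and 5 at 4 h, 83 and 28 at 14 h, and 25 and 28 at 24 h. XTH13 (AT5G57540) had 0 and 1 counts at 4 h, 27 and 16 at 14 h, and 9 and 5 at 24 h, with none before. All 3 genes were thus detected above 3 counts in each late library, and XTH12 also in CNQX 4 h.

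At 14 h against uncut tips, XTH14 was 352-fold higher (95% counting interval 96.6 to 2920), XTH12 at least 80.1-fold and XTH13 at least 31-fold, the last 2 against a floor of 3 counts over the uncut group. Without mock 14 h, XTH14 was 163-fold and XTH12 at least 44-fold higher. All 3 were called at 14 h, at 24 h and in late against early stumps. XTH14 kept these calls under every setting tried, DESeq2 did not call XTH12 in any of the 3, XTH12 was also lost at 14 h without mock 14 h, and XTH13 lost its call without the mock library of 14 h or 24 h at that time. XTH24 (AT4G30270), known as MERI5 and lying next to XTH18, had no count in uncut tips and at 4 h and 1 count at 30 min. XTH24 then had 43 and 17 counts (mock and CNQX) at 14 h and 128 and 31 at 24 h, at least 43.3-fold and at least 107-fold above uncut tips, or at least 26.7-fold without mock 14 h and at least 54-fold without mock 24 h. Its calls were kept under every setting tried. XTH12, XTH13, XTH14 and XTH24 passed the filter through the late stumps alone and had to be higher there, so their calls are a description.

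Markers of other tissues moved over the same libraries. Root hair markers, 4 genes, summed to 0.581 to 10.7 CPM in uncut tips with PRP3 at 0, to 4.29 to 94.8 at 30 min and 4 h, and to 90.1 to 297.3 at 14 h and 24 h, and 4 of 4 rose at 14 h. Endodermis markers, 7 genes of which 6 were tested, summed to 3.8 to 8.48 CPM in uncut tips with CASP2 and CASP5 at 0, to 3.4 to 22.2 early and to 60.9 to 446.4 late, and 6 of 6 rose at 14 h. Xylem markers, 3 genes of which 2 were tested, summed to 1.74 to 7.21 CPM in uncut tips, to 1.95 to 7.71 early and to 31.3 to 63.4 late, and 2 of 2 rose at 14 h. At 24 h the root hair marker COBL9 (edgeR adjusted p = 0.0545) was not called. Nor was the endodermis marker MYB36, at 1.38 CPM in mock and 2.74 in CNQX (edgeR adjusted p = 0.98). The other tested markers of these tissues were called up at 24 h too. Leaf markers also rose, 2 of 2 at 14 h and at 24 h. Over all genes 13.2% rose at 14 h and 21.3% at 24 h. Markers that passed the filter through the stumps alone had to be higher there, so these calls are a description. The part of these tissues in the late rises of XTH members was not tested.

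Clade III held the largest change of the family, that of XTH31 at 24 h. XTH31 (AT3G44990, chr3:16446935-16448844, minus strand, 4 exons), also called XTR8, had no count in any of the 4 uncut or the 2 libraries at 30 min and 2 and 3 counts (mock and CNQX) at 4 h. It had 473 and 137 counts (199 and 67.8 CPM) at 14 h and 4451 and 982 (1530.9 and 539 CPM) at 24 h. The 4 late libraries lay far above the 8 others, and mock was above CNQX at both late times. XTH31 was at least 440-fold above uncut tips at 14 h and at least 3650-fold at 24 h, and from the CNQX libraries alone, without mock 14 h or mock 24 h, at least 215-fold and at least 1710-fold. The test gave an adjusted p of 2.33e-05 at 14 h and 3.33e-06 at 24 h, and late stumps were above early ones by 10.31 ± 0.55 (adjusted p = 2.74e-05), with every call kept under each setting tried, omission of mock 24 h included. XTH31 passed the filter through the late stumps alone and had to be higher there, so these p-values and calls are a description.

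XTH32 (AT2G36870), the other clade IIIA member, had 3 counts in the uncut libraries together, 6 and 2 (mock and CNQX) at 30 min, 2 and 5 at 4 h, 107 and 49 at 14 h and 185 and 152 (63.6 and 83.4 CPM) at 24 h. Its late libraries were all above its early ones. XTH32 passed the filter through the late stumps alone and had to be higher there, so its calls are a description. The ratio to uncut tips was 113-fold at 14 h (95% counting interval 37.8 to 552) and 226-fold at 24 h (76.7 to 1100), and the fitted mean over the times was 4.71 ± 0.72 (adjusted p = 0.00126), kept under all 23 settings. XTH33 (AT1G10550), known as a membrane-anchored XTH, had 1 count before 14 h, 14 and 2 (mock and CNQX) at 14 h, and 38 and 39 at 24 h. XTH33 was at least 51.7-fold above uncut tips at 24 h, a call DESeq2 did not share, and its call at 14 h was lost under 7 of 21 settings, which were DESeq2, the replicate block and the omission of mock uncut replicate 1, mock 14 h, either CNQX uncut library or the 24 h libraries.

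XTH27 (AT2G01850), known from the differentiation of water-conducting cells in leaves, was present throughout. It stood at 21.5 and 44.5 CPM in mock uncut tips, 31.6 and 43 in CNQX uncut tips, 39.1 and 28.5 (mock and CNQX) at 30 min, 49.6 and 102 at 4 h, 169 and 163 at 14 h and 170 and 213 at 24 h. The late libraries lay above all others and the 30 min libraries lay within the uncut range. XTH27 rose by 1.43 ± 0.29 over the 4 times (adjusted p = 0.00518, kept under all 23 settings) and by 2.45 ± 0.37 at 24 h. XTH30 (AT1G32170) held 5 and 30 counts in mock uncut tips and 0 and 44 in CNQX uncut tips, or 1.45, 12.7, 0 and 20.5 CPM. It stood at 6.24 and 2.34 CPM (mock and CNQX) at 30 min, 20.5 and 59 at 4 h, 185 and 157 at 14 h and 158 and 154 at 24 h. XTH30 rose by 4.32 ± 0.82 at 14 h (lost without mock 14 h) and by 4.19 ± 0.82 at 24 h, whereas its mean over the times, 2.42 ± 0.69 (adjusted p = 0.0238), was lost under 6 of 23 settings, among them DESeq2 and the omission of mock uncut replicate 1, mock 30 min, mock 14 h or both libraries of 14 h or 24 h. XTH28 (AT1G14720), the close relative of XTH27, stood at 0.39 to 11.4 CPM over the 12 libraries and was not called.

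**Figure D4:**
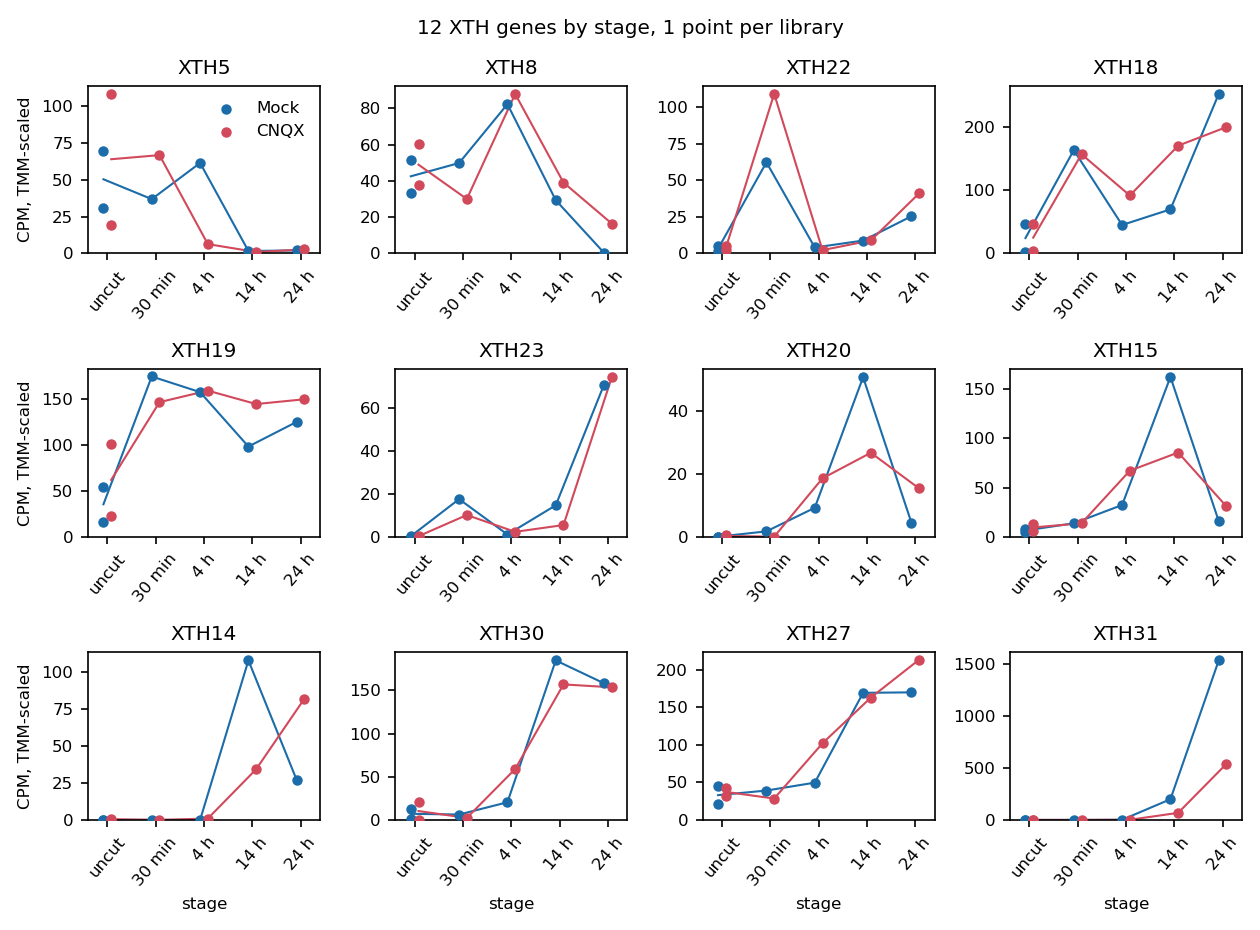
TMM-scaled CPM (vertical axis, from 0, with its own scale in each panel) of 12 XTH members at each stage (horizontal axis), with 1 point per library, mock in blue and CNQX in red; lines join the means of each treatment. XTH22 peaks at 30 min at 62.4 and 109, XTH15 and XTH20 are highest at 14 h, XTH5 is near 0 at 14 h and 24 h, and XTH31 reaches 1530.9 and 539 at 24 h.

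At 14 h, 13 of the 24 tested members rose and 1 fell, against 15.7% of all genes (13.2% up, 2.5% down). At 24 h, 16 rose and 3 fell, against 33.4% (21.3% up, 12.1% down). XTH12, XTH13, XTH14, XTH24, XTH31, XTH32 and XTH33 passed the filter through the late stumps alone. They had to be higher there, so the counts at both times are a description. The 14 members called at 14 h were called in the same direction at 24 h. Both comparisons use the same uncut libraries, so this is not independent support, and the share over all genes is not given. Without mock 14 h the count at 14 h was 7, all up, with XTH5, XTH12, XTH13, XTH17, XTH27, XTH30 and XTH33 lost. Without mock 24 h the count at 24 h was 11, all up, with XTH5, XTH8, XTH13 and XTH15 to XTH19 lost. XTH17 at 14 h was also lost with DESeq2 and without CNQX 14 h. The 24 h risers beyond those of 14 h were XTH18, XTH19 and XTH22.

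Few members fell, and each of those that did is a gene of clade I or the clade II gene XTH16. XTH5 (AT5G13870, chr5:4474922-4477090, minus strand) stood at 69.7 and 31 CPM in mock uncut tips, 108 and 19.6 in CNQX uncut tips, and 36.9 and 66.7 (mock and CNQX) at 30 min. At 4 h it stood at 61.4 in mock and 6.35 in CNQX, and it was at 1.68 and 0.99 at 14 h and at 2.06 and 2.74 at 24 h. All late libraries lay below every uncut and early one. XTH5 fell by 2.74 ± 0.55 on the log2 scale over the 4 times (adjusted p = 0.00476), by 5.39 ± 1.11 at 14 h and by 4.59 ± 1.03 at 24 h. The first call was lost without the 14 h libraries, the second without either 14 h library and the third without mock 24 h, while the fall from early to late stumps (by 4.50 ± 0.79, adjusted p = 0.00208) was kept under all 23 settings.

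XTH8 (AT1G11545) stood at 33.4 and 51.7 CPM in mock uncut tips, 60.1 and 37.8 in CNQX uncut tips, 49.9 and 30 (mock and CNQX) at 30 min, 82.4 and 88 at 4 h, 29.4 and 39.1 at 14 h and 0.344 and 16.5 at 24 h. XTH16 (AT3G23730), the close relative of XTH15, stood at 21.5 and 14.8 CPM in mock uncut tips, 12.7 and 21 in CNQX uncut tips, 36.3 and 10.9 at 30 min, 22 and 39.5 at 4 h, 11.8 and 9.41 at 14 h and 0 and 2.74 at 24 h. In both genes the 24 h libraries were the lowest 2 of the 12, and mock 24 h held 1 count of XTH8 and none of XTH16. At 24 h XTH8 fell by 2.72 ± 0.79 (adjusted p = 0.0193) and XTH16 by 3.88 ± 0.93 (adjusted p = 0.0072). Both calls were lost without mock 24 h, at -1.55 and -2.59.

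XTH4 (AT2G06850) ranged from 33.4 to 146 CPM in the stumps and from 48.7 to 168 in uncut tips, and its mean over the stump libraries was 97.7 ± 35.3 (SD, n = 8) against 95.8 ± 57.2 (SD, n = 4) in uncut tips. XTH9 (AT4G03210) ranged from 5.94 to 35.7 CPM in uncut tips and from 3.9 to 44.4 in stumps, and XTH11 (AT3G48580) from 0 to 5.1 over the 12 libraries. XTH21 (AT2G18800), known from primary root growth, had 3.8 to 5.6 CPM in uncut tips, 20.5 and 29.5 at 4 h and 28.1 and 13.4 at 14 h, but none in mock 24 h. None of these 4 was called in any comparison of stages.

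The comparison of late with early stumps takes no difference from uncut tips, although those libraries share its scaling and estimate of spread. Cell types can also differ between early and late stumps, and their part was not tested. Of the 24 tested members 11 rose and 3 fell from early to late, against 19.9% of all genes (13.2% up, 6.74% down), with a median of 1.45 against 0.05 over all genes. Members that passed the filter through the late stumps alone had to be higher there, XTH12, XTH13, XTH14, XTH24, XTH31, XTH32 and XTH33 among them. The counts and the median are therefore a description. The 11 were XTH12, XTH13, XTH14, XTH20, XTH23, XTH24, XTH27, XTH30, XTH31, XTH32 and XTH33, with log2 rises from 1.83 ± 0.32 for XTH27 to 10.31 ± 0.55 for XTH31. The 3 that fell were XTH5, XTH8 (by 1.97 ± 0.58) and XTH16 (by 2.91 ± 0.62). XTH18, at 0.66 ± 0.69, XTH19, at -0.31 ± 0.43, and XTH22, at 0.06 ± 0.36, were not called here. Without the 30 min libraries the count was 8, with XTH12, XTH13, XTH20, XTH27, XTH30 and XTH33 lost. The call of XTH20 was lost under 7 of 23 settings, single omissions of mock 4 h, mock 14 h, CNQX 30 min and CNQX 24 h among them. That of XTH8 was lost under 5, with mock 30 min, mock 14 h and CNQX 14 h among them. Those of XTH13 and XTH33 were lost without mock 14 h and that of XTH16 without mock 30 min, and that of XTH23 without both 4 h or both 24 h libraries.

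CNQX against mock gave no called member. The count was 0 of 24 in uncut tips, in stumps, and for the difference between the 2 effects, and 0% of all 16820 genes were called in each by edgeR. DESeq2 and limma-voom also called 0 members in each of the 3. At an unadjusted p under 0.05, 0 members passed in uncut tips, 1 in stumps and 0 for the difference. The 1 was XTH31, at -1.33 ± 0.40 over the stumps (unadjusted p = 0.00784, adjusted p = 1). With separate early and late effects XTH31 stood at -1.53 ± 0.38 late (adjusted p = 0.42) and 2 members passed an unadjusted p under 0.05 there. Over the stumps the SE of the CNQX effect ran from 0.32 for XTH27 to 0.99 for XTH33, so these tests do not show that CNQX and mock roots were alike.

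At single times there was 1 library per treatment, so the following ratios of CNQX to mock have no test and their 95% intervals cover counting error only. XTH31 stood at 0.342 of mock at 14 h (interval 0.28 to 0.414) and at 0.352 at 24 h (0.328 to 0.377), the same direction at both times. Leaf markers moved likewise, at a summed 107.1 CPM in mock and 27.2 in CNQX at 14 h and 255.2 and 80.7 at 24 h. XTH14 stood at 0.318 (0.24 to 0.416) at 14 h and at 3.05 (2.3 to 4.06) at 24 h, so its direction turned between the 2 times. XTH15 and XTH20 turned likewise, from 0.527 and 0.526 at 14 h to 1.94 and 3.44 at 24 h, after 2.08 and 2.02 at 4 h. In XTH15 and XTH20 CNQX was thus above mock at 4 h, below it at 14 h and above it at 24 h. The summed root hair markers turned in the same way, at 28.7 CPM in mock and 94.8 in CNQX at 4 h, 297.3 and 190.1 at 14 h and 90.1 and 175.0 at 24 h. The summed endodermis markers did so too, at 7.67 and 22.2 at 4 h, 446.4 and 206.5 at 14 h and 60.9 and 139.9 at 24 h. Not every marker followed its sum: ESB1 stood at 4.09 in mock and 3.18 in CNQX at 4 h, and CASP5 at 1.26 and 4.95 at 14 h. The summed xylem markers did not turn back at 24 h, at 6.65 and 7.71 at 4 h, 63.4 and 37.6 at 14 h and 33.7 and 31.3 at 24 h. The part of these tissues in the CNQX ratios was not tested.

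Other members are given here at single times, although some differed at further times too. XTH18, for example, also stood at 45 CPM in mock and 91.6 in CNQX at 4 h. XTH5 stood at 0.103 of mock at 4 h (interval 0.0549 to 0.18), with 14 counts in CNQX and 120 in mock, against 1.81 at 30 min. XTH22 stood at 1.75 (1.4 to 2.2) at 30 min, and XTH30 at 2.88 (2.01 to 4.22) at 4 h. XTH17 and XTH18 stood at 3.05 (2.19 to 4.3) and 2.44 (2.02 to 2.96) at 14 h, and XTH9 at 7.18 (4.27 to 12.7) at 24 h, where mock held 18 counts. Of the members with more than 3 counts in both treatments, 12 of 15 lay below mock at 30 min, 12 of 15 above it at 4 h, 15 of 22 below it at 14 h and 14 of 20 above it at 24 h. The share of all genes on each side of mock is not given beside these counts. They compare 1 library with 1 library and are not a result about the family. The counting intervals leave out the spread between libraries, which the uncut pairs show to be wide: XTH18 differed from 2.03 to 46.7 CPM between mock replicates.

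**Figure D5:**
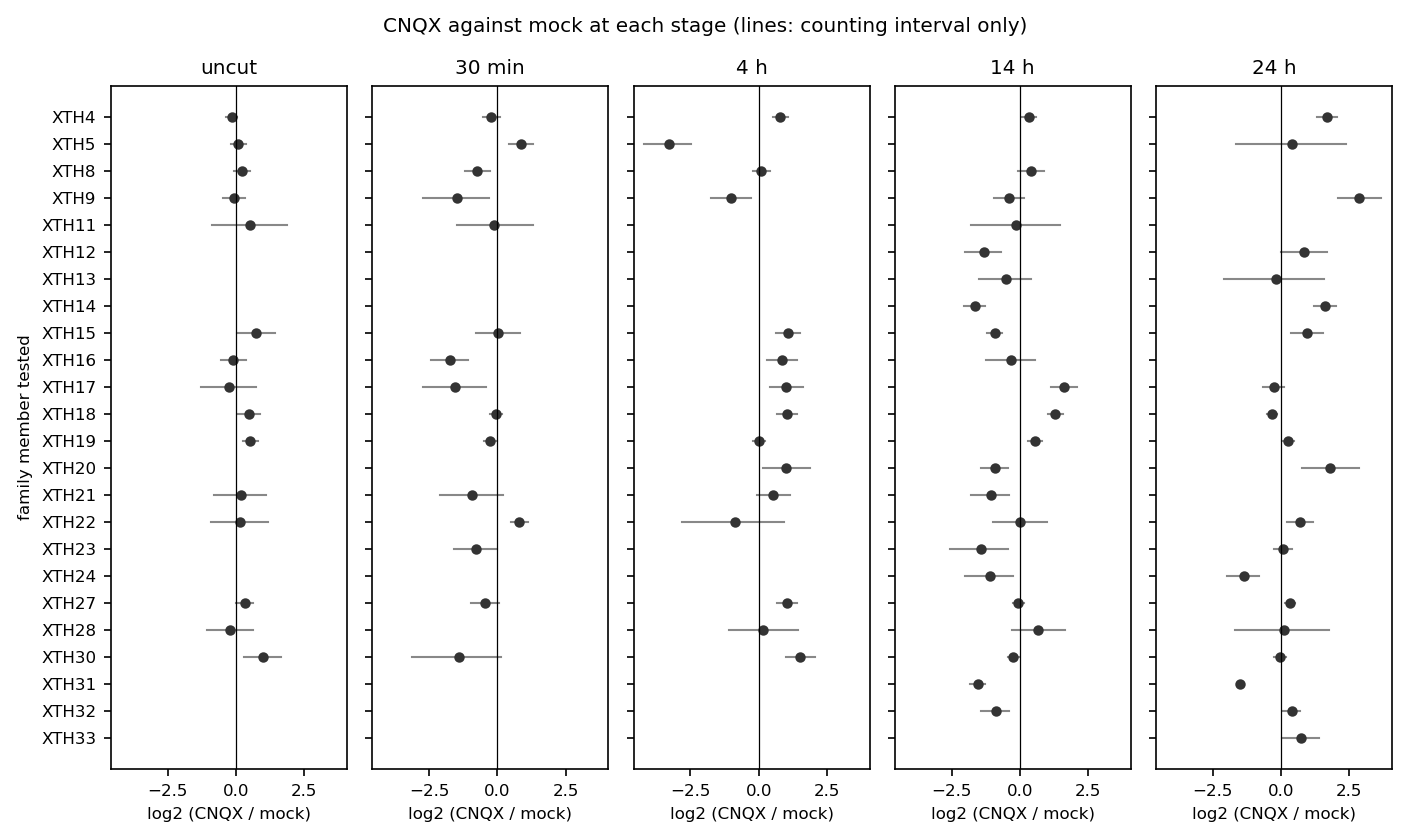
Log2 ratio of CNQX to mock (horizontal axis) for each tested member with more than 3 counts in both (vertical axis) at each stage, from pooled pairs of libraries in uncut tips and from 1 library per treatment at each time; lines are 95% counting intervals and hold no spread between replicates. XTH31 lies left of 0 at both late times, and XTH5 at 4 h is the point farthest to the left.

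Among 15 members with at least 20 counts in the uncut libraries together, 11 differed between uncut replicates 1 and 2 in the same direction in both treatments. Same-numbered uncut libraries also deviated together over all 16820 genes tested (r = 0.357), so the count is not a result about the family. XTH5, XTH9 and XTH19 were higher in replicate 1 and XTH4, XTH17, XTH18 and XTH30 in replicate 2. XTH18 showed the widest gap in mock, and XTH30 in CNQX, with 0 and 44 counts. The labels name no property of the plants or of the day that these numbers stand for.

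The summed level of genes that make xyloglucan was highest in the early stumps, while single genes differed in their timing. Of 16 genes of xyloglucan synthesis, 15 were tested, 4 rose and 0 fell over the mean of the times (26.7% of the tested genes, close to the 25.5% of all genes). CSLC4 (AT3G28180), the main glucan synthase of the backbone, went from 20.9 to 33.9 CPM in uncut tips to 106 and 97.9 at 30 min and rose by 1.78 ± 0.25 over the times (adjusted p = 0.000859). CSLC12 (AT4G07960) rose by 2.70 ± 0.72, the root hair galacturonosyltransferase gene XUT1 (AT1G63450) by 4.33 ± 1.14 and the acetyltransferase gene AXY4 (AT1G70230) by 1.52 ± 0.41. CSLC12 and XUT1 passed the filter through the stumps alone and had to be higher there. From early to late stumps 0 of the 15 rose and 5 fell, against 13.2% up and 6.74% down over all genes: the xylosyltransferase genes XXT1, XXT2, XXT4 and XXT5 and the galactosyltransferase gene MUR3, with XXT2 falling by 1.15 ± 0.25 (adjusted p = 0.00649). These 5 were named after their values were seen. CSLC12, at 1.39 ± 0.66 from early to late on the log2 scale, XUT1, at 0.81 ± 0.79, and AXY4, at 0.49 ± 0.42, were not called there. The summed level of the 16 was 566.9 to 726.0 CPM in uncut tips, 994.1 to 1183.8 in early stumps and 620.8 to 789.8 in late stumps, so the early libraries did not overlap with the others. Of the 3 genes of xyloglucan trimming (XYL1, BGAL10 and AXY8) 0 were called by edgeR over the mean of the times, with 1 at an unadjusted p under 0.05, and their sum was 263.9 to 396.7 CPM in uncut tips and 145.1 to 239.2 in late stumps.

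The NAC factor genes ANAC071 and ANAC096, known to act upstream of XTH19 and XTH20 in cut stems, were at 0 in the 4 uncut libraries. ANAC096 (AT5G46590) stood at 0.567 and 2.73 CPM (mock and CNQX) at 30 min, 4.09 and 3.18 at 4 h, 9.24 and 7.92 at 14 h and 0.344 and 3.84 at 24 h, and rose by 5.83 ± 1.32 over the times (adjusted p = 0.0103). ANAC096 passed the filter through the stumps alone and had to be higher there, so this call is a description. ANAC071 (AT4G17980), not tested for its low counts, stood at 2.52 and 4.95 CPM at 14 h and at most 1.65 in the other libraries. The part of these factors in the levels of XTH19 and XTH20 was not tested.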

How the data were processed

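RNA of 12 libraries was counted per locus by the authors, and the deposited values are raw counts with no normalization. The joint table held the same counts as the files of single libraries. The TAIR10 build, HISAT2 and DESeq2 are named in the submitters' processing notes. Not given in the sources used here are tool versions, the counting program and its strand setting. Both treatments and all 12 libraries entered 1 fit with edgeR 4.0.16 in R 4.3.3, with 7 coefficients (5 stages, and CNQX in uncut and in cut roots) and 5 residual degrees of freedom. Genes passed filterByExpr at a minimum count of 10 (16820 genes), TMM set the library scaling, and the quasi-likelihood test was used. Adjustment was by Benjamini-Hochberg across these genes at a threshold of 0.05. Each standard error is the absolute log2 value divided by the root of its F statistic. The fit was tested on simulated data. Folds against a group without counts are lower bounds against 3 counts over the group, and ratios from 1 to 3 counts carry 95% exact intervals, which cover counting error only. Alternatives were DESeq2 1.42.0, limma 3.58.1 (voom), RLE scaling, other filters, a replicate block and omissions of libraries. Sequences and coordinates came from RefSeq's TAIR10.1, matched by locus for all 33 members, and the files hold no coordinates. Every member is named with at least its range. Members called in a comparison have their values (CPM or counts) by library, and of each other list up to 4 genes with the lowest p for excision are named. The members and lists were chosen with earlier results of these data known.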

Additional observations from a re-analysis of the deposited data

How the results depend on the processing

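The 62 named calls, each rerun under 21 to 23 settings, gave 1380 outcomes that are not independent of each other. Of these outcomes, 1303 kept the call, 77 lost it and 0 changed direction. The cause of each loss was not tested. Of 24 members, limma-voom called 17 for excision (11 in the reported fit) and 4 at 30 min (2), and DESeq2 called 4 at 4 h (2). With no filter on low counts, which also let in the members with a count that were not tested before, 5 were called at 30 min and 8 at 4 h. The share of all genes called under each setting is not given beside the counts in this section. Leaving out libraries gave 9 to 16 for excision, 2 to 3 at 30 min, 0 to 3 at 4 h, 7 to 15 at 14 h, 11 to 19 at 24 h and 8 to 15 for late against early. The 16 came without the 30 min libraries. Same-numbered uncut libraries deviated together (r = 0.357 over 16820 genes), but only 2 pairs exist and all stumps carry number 1, so the numbers were not taken as pairs. With the replicate block 5 members were called at 4 h, 11 for excision, 3 at 30 min, 14 at 14 h, 18 at 24 h and 16 for late against early. RLE scaling moved the median of all genes by at most 0.016 and kept each count. The CNQX counts stayed at 0 in every setting. Depth limits the 9 members not tested, and with 1 library per treatment and time a lone library is assumed to vary like the others.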
